A study of Mus musculus with 27 samples.

Results

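Oxidative phosphorylation genes were described across hair follicle stem cell (HFSC) cultures and skin cells of the mouse. Members were taken by name alone: symbols that start with Nduf, Uqcr, Cox4 to Cox8 or Atp5, and Sdha to Sdhd, without pseudogene symbols ending in -ps. The rule found 92 of 51906 gene symbols in the RNA-seq table and 93 of 32285 genes in the single cell matrices, 94 symbols in all. By complex these were 36 genes of complex I, 8 complex I assembly factors, 4 of complex II, 8 of complex III, 20 of complex IV and 18 of complex V. Some carry the name without being a subunit of the enzyme, such as the Ndufaf assembly factors and Atp5s.

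The respiratory chain of the inner mitochondrial membrane passes electrons from NADH through complex I, or from succinate through complex II, to coenzyme Q. Complex III passes them on to cytochrome c, and complex IV passes them to oxygen. Complexes I, III and IV pump protons as they do so, and complex V, the ATP synthase, lets the protons flow back and makes ATP. The catalytic cores of complexes I, III, IV and V include proteins encoded in the mitochondrial genome, whereas the genes described here are all nuclear, and several complex IV subunits have isoforms that are known from muscle, lung or testis.

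The RNA-seq part held 8 libraries of HFSCs from telogen back skin of mice at postnatal day 55, with 2 mice per genotype and 2 media per mouse. The genotypes were wild-type and Rxra cKO, which by the study's methods carried Sox9-CreER, a floxed allele of the retinoid receptor gene Rxra on both chromosomes, and a Rosa26-YFP reporter, from alleles on a C57BL/6 background. All lines had been expanded on mitomycin-inactivated feeder cells and grown in three-dimensional culture either in serum (FBS) or in a serum-free medium with all-trans retinoic acid and an inhibitor of protein kinase C (atRA+PKCi), so the medium contrast also covers the removal of serum. The single cell part came from wild-type mice at postnatal day 32, whose follicles were in full growth (anagen VI): 2 mice gave one matrix each of sorted back skin cells, and HFSC cultures of 2 mice gave one pooled matrix each, in which antibody barcodes (hashtags) record the culture condition. The conditions were FBS, the B27 supplement alone, and atRA+PKCi alone or with R-spondin (Rspo), BMP or an inhibitor of the retinoic acid receptor (RARi).

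Library totals lay between 25150265 and 35879777 estimated counts, and levels are given as CPM, counts scaled by library size and TMM factor. Rxra was at 149 and 122 CPM in wild-type FBS, at 147 and 143 in wild-type atRA+PKCi, 97.2 and 95.7 in the FBS libraries labelled Rxra cKO and 148 and 145 in the atRA+PKCi libraries labelled so. The gene-level counts do not separate the floxed part from the rest of the gene, so they do not check the deletion, and the groups are named here by their labels. Markers of fibroblasts or feeder cells summed to between 3.21 and 21.9 CPM over 8 genes, with 1 to 3 of them at 0 in each library, those of immune cells to at most 1.86 CPM and those of melanocytes to at most 0.770 CPM. The 6 keratinocyte markers summed to between 17968 and 38458 CPM. In these bulk samples, fewer cells of a type and less RNA per cell cannot be told apart.

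Of the 92 members in the RNA-seq table, 85 passed the filter on low counts. The other 7 were isoforms of complex IV subunits known from other tissues. Cox7b2, Cox8b and Cox8c had 0 counts in all 8 libraries, which allows up to 0.119 CPM in the library with the smallest total, and Cox4i2, Cox6a2, Cox6b2 and Cox7a1 had at most 13 counts in any library. Of the 85, Ndufaf6 had the lowest mean, 3.41 CPM, and Atp5b the highest, 876 CPM. Per kilobase of exon, the highest mean level over the 8 libraries was that of Cox6b1, 291 CPM per kb, followed by Cox8a at 245, Atp5a1 at 216 and Cox7a2l at 209.

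With TMM factors, atRA+PKCi went with lower levels of many subunit genes of complexes III, IV and V in wild-type HFSCs. Cox7a2l rose instead. At an adjusted p under 0.05 (edgeR's quasi-likelihood F test, Benjamini-Hochberg over 15965 genes), 27 of 85 members were lower and 4 higher than in FBS, where 26.6% of all genes tested were lower and 27.2% higher (53.9% in either direction). The median log2 fold change was -0.14 over the members and 0.03 over all genes, and 61 of 85 members had a negative value. By complex, 5 of 8 complex III genes were lower, as were 8 of 13 of complex IV, 7 of 16 of complex V and 7 of 36 of complex I, with medians of -0.36, -0.35, -0.22 and -0.13. None of the 8 assembly factors passed the test in either direction, with a median of -0.13, and of the 4 complex II genes 1 was higher. The count of lower members was 17 without wild-type FBS replicate 2 and 15 without wild-type atRA+PKCi replicate 2. The count of higher members was 10 without wild-type FBS replicate 2 and 2 without either wild-type atRA+PKCi library, without Rxra cKO FBS replicate 1 or without either Rxra cKO atRA+PKCi library. When library totals replaced TMM, which moved the median of all genes from 0.03 to 0.27, the calls were 23 higher and 7 lower, while the members' median stayed 0.18 under that of all genes (0.10 against 0.27).

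In the labelled Rxra cKO, the same change of medium gave 7 members higher and 10 lower, against 20.8% and 22.2% of all genes (43.0% in either direction). The median was -0.09 over the members and 0.02 over all genes. Complex I had 5 higher and 3 lower, complex III and the assembly factors 1 lower each, complex IV and complex V 1 higher and 2 lower each, and complex II 1 lower. The count of lower members was 16 without either wild-type FBS library, 4 without Rxra cKO FBS replicate 2, 3 without Rxra cKO atRA+PKCi replicate 1 and 4 without replicate 2, and the count of higher members was 4 without either Rxra cKO atRA+PKCi library. With library totals there were 17 higher and 6 lower.

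**Figure D1:**
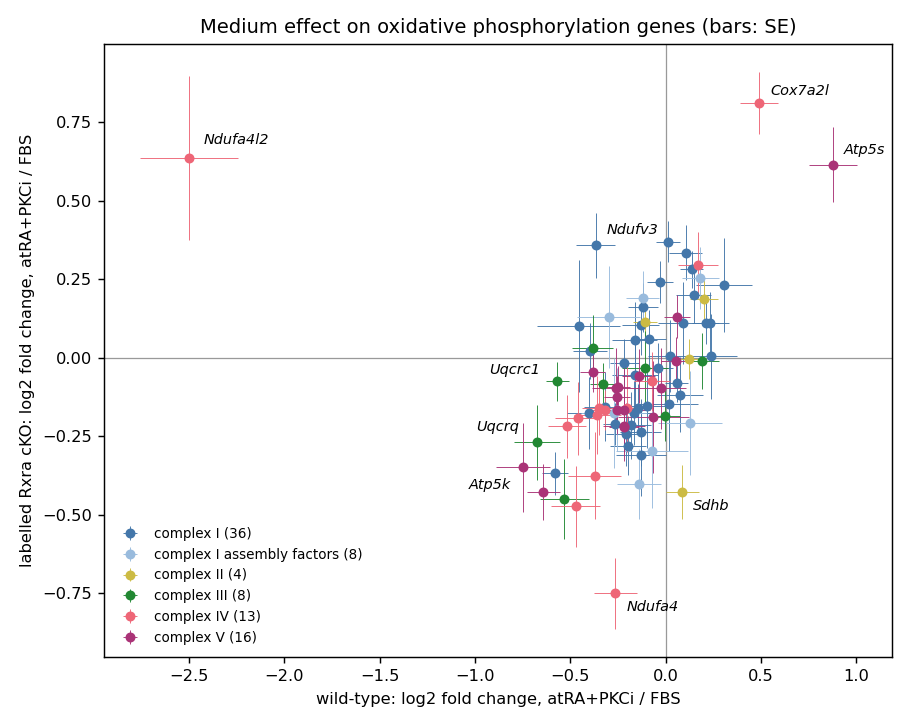
Medium effect on 85 oxidative phosphorylation genes in HFSC cultures, as the log2 fold change of atRA+PKCi over FBS in wild-type (horizontal axis) and in the labelled Rxra cKO (vertical axis). Points are genes colored by complex and bars are standard errors. Most points lie between -0.75 and 0.50 on both axes, Ndufa4l2 stands apart at -2.50 in wild-type and 0.64 in the labelled Rxra cKO, and Cox7a2l lies at 0.49 and 0.81.

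The difference between the medium effects of the genotypes (wild-type minus labelled Rxra cKO) was tested as an interaction. It was called lower for 6 members and higher for 1, against 13.3% and 11.3% of all genes tested (24.6% in all). The lower ones included Ndufa4l2, Ndufv3, Uqcrc1, Ndufs5 and Atp5d, and the higher one was Sdhb. Of these, Ndufs5 and Atp5d were named after their values were seen. The count of lower members was 13 without wild-type FBS replicate 1 and 3 without either Rxra cKO atRA+PKCi library. The count of higher members was 4 without wild-type FBS replicate 2 and 0 without Rxra cKO FBS replicate 2 or any one of the 4 atRA+PKCi libraries.

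Between genotypes, 9 members were higher and 17 lower in labelled Rxra cKO than in wild-type FBS, where the background over all genes was 22.3% higher and 20.5% lower (42.8% in all). With atRA+PKCi, 12 were higher and 5 lower, against 23.0% and 20.2% (43.2% in all). These contrasts share their libraries with the medium contrasts. In FBS, complex V had 5 genes higher and 3 lower, and complex I had 2 higher and 5 lower. In atRA+PKCi, complex I had 7 higher and 1 lower, and complex V 4 higher and 1 lower. In FBS the calls were 16 higher and 11 lower without wild-type FBS replicate 2, 27 were lower without wild-type FBS replicate 1, 9 were lower without Rxra cKO FBS replicate 1 and 3 were higher without its replicate 2. In atRA+PKCi, leaving out any one of the 4 libraries compared gave 4 to 6 higher and 1 to 3 lower. With library totals, the FBS contrast had 23 higher and 8 lower.

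The FBS replicates themselves differed in these genes. In wild-type FBS, replicate 2 was above replicate 1 for 78 of 85 members, with a median log2 difference of 0.21, where the median over all genes was -0.01. In the labelled Rxra cKO FBS pair this held for 74 of 85, with a median of 0.15. In atRA+PKCi, 55 and 56 of 85 members were higher in replicate 2, and the medians were 0.03 in both genotypes. Cytosolic ribosomal protein genes moved with them, with medians of 0.33 and 0.26 in the FBS pairs and 0.12 and 0.02 in the atRA+PKCi pairs. The part of this spread in the medium contrasts was not tested beyond leaving out each library.

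Complex I takes electrons from NADH. Ndufv3, a small accessory subunit of the NADH-binding module (GRCm38 chr17:31520115-31531331, plus strand), moved in opposite directions. It was at 96.7 and 113 CPM in wild-type FBS and 84.7 and 77.7 in wild-type atRA+PKCi, against 53.8 and 63.6 in labelled Rxra cKO FBS and 73.6 and 77.0 in labelled Rxra cKO atRA+PKCi. Its wild-type FBS pair was the highest and its labelled Rxra cKO FBS pair the lowest. The medium effects were -0.37 ± 0.10 (log2, SE, adjusted p = 0.015) and 0.36 ± 0.10 (adjusted p = 0.0224), and they differed by -0.73 ± 0.15 (adjusted p = 0.00758). In FBS the labelled Rxra cKO was lower by -0.83 ± 0.10 (adjusted p = 0.000296). The call of the wild-type effect was lost without wild-type FBS replicate 2 (-0.26) or without wild-type atRA+PKCi replicate 2 (-0.31), and that of the labelled Rxra cKO effect without Rxra cKO FBS replicate 1 (0.27) or without Rxra cKO atRA+PKCi replicate 1 (0.41) or 2 (0.32). The difference of effects and the genotype difference in FBS kept their calls without any one library.

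Ndufb8, an accessory subunit of the membrane arm, was at 100.2 and 109 CPM in wild-type FBS and 67.9 and 71.9 in wild-type atRA+PKCi, and at 105 and 106 and then 80.8 and 82.1 in the same media in the labelled Rxra cKO. Both FBS pairs were above both atRA+PKCi pairs. It fell with the change of medium by 0.58 ± 0.07 in wild-type (adjusted p = 0.000115) and by 0.37 ± 0.07 in the labelled Rxra cKO (adjusted p = 0.00238), and neither call depended on 1 library. Ndufab1, the mitochondrial acyl carrier protein, was at 65.8 and 72.2 CPM in wild-type FBS and 79.0 and 80.8 in wild-type atRA+PKCi, a rise of 0.21 ± 0.07 (adjusted p = 0.0278) whose call was lost, at 0.14 to 0.21, without any 1 library except wild-type FBS replicate 2 or without Rxra cKO FBS replicate 2. In the labelled Rxra cKO the groups did not overlap either, at 72.8 and 74.7 against 77.9 and 81.5, with 0.11 ± 0.07 (adjusted p = 0.219).

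Ndufb4, another membrane arm subunit (GRCm38 chr16:37647170-37654453, minus strand), was called with genotype in both media and with medium in neither genotype. Its promoter is shown, chosen after its values were seen, because its 250 bases before the RefSeq start hold several matches to the NRF1 motif, which is known from nuclear genes of the mitochondrion. The window lies at chr16:37654369-37654618 of GRCm38.p6, is written on the gene's own minus strand, and has the 3 matches to that motif in capitals. It overlaps the annotated span of the gene, which begins at base 37654453 on that strand. The matches at 79 to 70 and at 22 to 13 bases before the RefSeq start lie inside that span. Which start these cells use was not tested.
Ndufb4: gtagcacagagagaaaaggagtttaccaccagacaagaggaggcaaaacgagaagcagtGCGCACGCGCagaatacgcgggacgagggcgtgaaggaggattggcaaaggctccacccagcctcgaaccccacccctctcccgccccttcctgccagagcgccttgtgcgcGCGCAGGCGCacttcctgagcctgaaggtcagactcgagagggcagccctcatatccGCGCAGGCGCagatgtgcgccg
Ndufb4 was at 12.6 and 17.7 CPM in wild-type FBS and 14.4 and 16.3 in wild-type atRA+PKCi, against 22.1 and 25.4 and then 21.6 and 21.2 in the labelled Rxra cKO. All 4 labelled Rxra cKO libraries were above all 4 wild-type libraries. The genotype difference was 0.65 ± 0.15 in FBS (adjusted p = 0.00801) and 0.49 ± 0.15 in atRA+PKCi (adjusted p = 0.0286). The FBS call was lost without Rxra cKO FBS replicate 2 (0.55), and the atRA+PKCi call without wild-type atRA+PKCi replicate 1 (0.43) or either Rxra cKO atRA+PKCi library (0.50 each).

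Ndufa6, an accessory subunit of the LYR-motif family, differed in the other direction. It was at 63.9 and 83.4 CPM in wild-type FBS and 86.7 and 95.1 in wild-type atRA+PKCi, and at 46.2 and 58.3 and then 56.9 and 66.2 in the labelled Rxra cKO. Within each medium, the labelled Rxra cKO was below wild-type without overlap, by -0.49 ± 0.15 in FBS (adjusted p = 0.0267) and -0.57 ± 0.15 in atRA+PKCi (adjusted p = 0.0139). The FBS call was lost without wild-type FBS replicate 2 (-0.29) or without Rxra cKO FBS replicate 1 (-0.35), and the atRA+PKCi call without wild-type atRA+PKCi replicate 2 (-0.50) or without Rxra cKO atRA+PKCi replicate 1 (-0.43). Among the assembly factors, Ndufaf4 was at 19.0 and 24.5 CPM in wild-type FBS, at 19.4 and 20.0 in wild-type atRA+PKCi, 28.7 and 29.8 in labelled Rxra cKO FBS and 22.0 and 22.3 in labelled Rxra cKO atRA+PKCi. The labelled Rxra cKO FBS pair was the highest, with a medium effect of -0.40 ± 0.11 in that genotype (adjusted p = 0.0187), a call that was lost without any 1 of its 4 libraries at values of -0.37 to -0.41.

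Complex II, succinate dehydrogenase, links the chain to the tricarboxylic acid cycle and has no subunit from the mitochondrial genome. Sdhb, its iron-sulfur subunit (GRCm38 chr4:140961203-140979193, plus strand), was at 53.1 and 62.2 CPM in wild-type FBS and 60.01 and 62.5 in wild-type atRA+PKCi, and at 73.4 and 79.7 in labelled Rxra cKO FBS and 56.5 and 57.3 in labelled Rxra cKO atRA+PKCi. The labelled Rxra cKO FBS pair was above the 6 other libraries. Sdhb was the member whose medium effect in wild-type exceeded that in the labelled Rxra cKO past the threshold: 0.09 ± 0.09 (adjusted p = 0.423) against -0.43 ± 0.09 (adjusted p = 0.00389), a difference of 0.52 ± 0.12 (adjusted p = 0.0157). That call was lost without wild-type atRA+PKCi replicate 1 (0.50) or 2 (0.49), Rxra cKO FBS replicate 2 (0.45) or without Rxra cKO atRA+PKCi replicate 1 (0.46) or 2 (0.52).

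The other complex II genes moved less. Sdha, the flavoprotein, was at 89.2 and 82.3 CPM in wild-type FBS and 101 and 96.2 in wild-type atRA+PKCi, a rise of 0.20 ± 0.07 (adjusted p = 0.0407) whose call was lost, at 0.14 to 0.23, without any 1 library except wild-type FBS replicate 1 or without Rxra cKO FBS replicate 2. In the labelled Rxra cKO it was at 93.6 and 86.7 and then 101 and 104, with 0.19 ± 0.07 (adjusted p = 0.0632). Of the membrane anchors, Sdhc lay between 109 and 129 CPM and was lower in labelled Rxra cKO than wild-type FBS by -0.19 ± 0.06 (adjusted p = 0.0388), a call lost without any 1 library except wild-type FBS replicate 1 (-0.14 to -0.21), and Sdhd lay between 64.1 and 71.9 CPM and passed no test. The complex II genes summed to 329 and 338 CPM in wild-type FBS and to 347 and 346 in wild-type atRA+PKCi.

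Complex III oxidizes reduced coenzyme Q. Its 8 genes summed to 1126 and 1288 CPM in wild-type FBS and 965 and 989 in wild-type atRA+PKCi, and to 997 and 1118 and then 959 and 976 in the labelled Rxra cKO. On this scale the FBS pairs were above the atRA+PKCi pairs in both genotypes. As a percent of library counts, without TMM factors, the media overlapped in both genotypes. Complex III then took 0.1026% and 0.1137% in wild-type FBS and 0.1045% and 0.1026% in wild-type atRA+PKCi. In the labelled Rxra cKO it took 0.1005% and 0.1075% in FBS and 0.1021% and 0.1042% in atRA+PKCi. Uqcrc1, a core protein on the matrix side (GRCm38 chr9:108936633-108949623, plus strand), was at 232 and 233 CPM in wild-type FBS and 158 and 156 in wild-type atRA+PKCi, and at 189.6 and 181 and then 177 and 174 in the labelled Rxra cKO. The 2 wild-type groups were the highest and the lowest of the 4. The medium effect was -0.57 ± 0.06 in wild-type (adjusted p = 7.11e-05) and -0.08 ± 0.06 in the labelled Rxra cKO (adjusted p = 0.357), a difference of -0.49 ± 0.09 (adjusted p = 0.00377) that kept its call without any one library.

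Uqcrq, a small accessory subunit, was at 161 and 206 CPM in wild-type FBS and 115 and 115 in wild-type atRA+PKCi, and at 137 and 163 and then 123 and 126 in the labelled Rxra cKO. It fell by 0.67 ± 0.12 in wild-type (adjusted p = 0.00146), and the value in the labelled Rxra cKO was -0.27 ± 0.12 (adjusted p = 0.102). Uqcrb, the subunit that helps bind coenzyme Q, was at 75.3 and 98.5 CPM in wild-type FBS and 60.3 and 59.9 in wild-type atRA+PKCi, and at 86.9 and 104 and then 68.2 and 71.4 in the labelled Rxra cKO. FBS stood above atRA+PKCi in both genotypes, with -0.53 ± 0.13 (adjusted p = 0.00717) and -0.45 ± 0.13 (adjusted p = 0.0196). The second call was lost without Rxra cKO FBS replicate 2 (-0.32) or without Rxra cKO atRA+PKCi replicate 1 (-0.39) or 2 (-0.49), and with library totals the wild-type value of Uqcrb was -0.29 and no longer called.

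Uqcrfs1, the Rieske iron-sulfur protein, was at 118 and 130.2 CPM in wild-type FBS, at 100.5 and 97.3 in wild-type atRA+PKCi, 89.1 and 92.4 in labelled Rxra cKO FBS and 86.3 and 84.8 in labelled Rxra cKO atRA+PKCi. All 4 labelled Rxra cKO libraries were below all 4 wild-type libraries. It fell with medium in wild-type by 0.33 ± 0.07 (adjusted p = 0.00326), which library totals reduced to -0.09 without a call, and it was lower in the labelled Rxra cKO by -0.45 ± 0.07 in FBS (adjusted p = 0.000861). Uqcrc2, the other core protein, was at 195 and 215 CPM in wild-type FBS, at 195 and 212 in wild-type atRA+PKCi, 179 and 198 in labelled Rxra cKO FBS and 165 and 167 in labelled Rxra cKO atRA+PKCi. The last pair stood below the other libraries, by -0.30 ± 0.08 against wild-type in the same medium (adjusted p = 0.0165), a call lost without wild-type atRA+PKCi replicate 2 (-0.24) or without Rxra cKO atRA+PKCi replicate 1 (-0.26) or 2 (-0.30).

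Complex IV, cytochrome c oxidase, had the member with the largest change. Ndufa4l2 (GRCm38 chr10:127514967-127517154, plus strand) is a paralog of Ndufa4, which was first assigned to complex I and is now counted with complex IV, and it is known as a gene induced by low oxygen. Ndufa4l2 was at 46.3 and 49.3 CPM in wild-type FBS and 8.60 and 8.30 in wild-type atRA+PKCi, and at 5.72 and 11.2 in labelled Rxra cKO FBS and 15.1 and 11.1 in labelled Rxra cKO atRA+PKCi. The wild-type FBS libraries stood above all others. The medium effect was -2.50 ± 0.26 in wild-type (adjusted p = 5.26e-05) and 0.64 ± 0.26 in the labelled Rxra cKO (adjusted p = 0.0791), a difference of -3.13 ± 0.36 (adjusted p = 0.000452). In FBS the labelled Rxra cKO was lower by -2.49 ± 0.26 (adjusted p = 0.000104), and these 3 calls held without any one library.

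Hypoxia targets and glycolytic genes were also highest in wild-type FBS. The 12 hypoxia targets listed summed to 3430.0 and 3337 CPM in wild-type FBS, at 1933 and 1947 in wild-type atRA+PKCi, 1102 and 1234 in labelled Rxra cKO FBS and 953 and 920.0 in labelled Rxra cKO atRA+PKCi. The 16 glycolysis genes summed to 25175 and 25939, 18203 and 17774, 14480.5 and 15301, and 12868 and 12932.5 CPM in the same order. Unlike Ndufa4l2, both sums were lowest in labelled Rxra cKO atRA+PKCi. Their part in the Ndufa4l2 difference was not tested.

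Ndufa4 itself was at 126 and 156 CPM in wild-type FBS and 113 and 122 in wild-type atRA+PKCi, and at 147 and 171 and then 97.7 and 91.6 in the labelled Rxra cKO (GRCm38 chr6:11900292-11907497, minus strand). It fell by 0.75 ± 0.11 in the labelled Rxra cKO (adjusted p = 0.000848), while the wild-type value was -0.26 ± 0.11 (adjusted p = 0.0781) and the difference 0.49 ± 0.16 (adjusted p = 0.0563). That difference was called with the mouse as a replicate block, at 0.49. Per kilobase of exon, Ndufa4 was at 91.6 and 113 CPM per kb in wild-type FBS, where Ndufa4l2 was at 42.3 and 45.0, and at 70.7 and 66.3 in labelled Rxra cKO atRA+PKCi, where Ndufa4l2 was at 13.8 and 10.2. Ndufa4 was the more abundant of the pair on this scale in all 8 libraries.

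Cox7a2l, which helps hold complexes III and IV together in supercomplexes, rose where most complex IV genes did not (GRCm38 chr17:83501918-83517330, minus strand). Its promoter is shown as that of the complex IV gene that rose in both genotypes. The 250 bases before its RefSeq start, chr17:83514334-83514583 of GRCm38.p6 on the minus strand, hold 1 match to the GC box GGGCGG, in capitals. This window lies inside the annotated span of the gene, which begins at base 83517330 on that strand. Which start these cells use was not tested.
Cox7a2l: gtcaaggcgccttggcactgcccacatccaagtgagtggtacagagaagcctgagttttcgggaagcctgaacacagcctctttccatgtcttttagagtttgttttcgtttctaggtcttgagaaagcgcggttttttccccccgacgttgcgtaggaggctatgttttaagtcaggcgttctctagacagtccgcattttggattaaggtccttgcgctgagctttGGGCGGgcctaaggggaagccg
Cox7a2l was at 251 and 299.6 CPM in wild-type FBS and 372 and 401 in wild-type atRA+PKCi, and at 197 and 218 in labelled Rxra cKO FBS and 368 and 360.3 in labelled Rxra cKO atRA+PKCi. All atRA+PKCi libraries were above all FBS libraries. It rose by 0.49 ± 0.10 in wild-type (adjusted p = 0.00272) and by 0.81 ± 0.10 in the labelled Rxra cKO (adjusted p = 0.000235), and the difference of -0.32 ± 0.14 did not pass the threshold (adjusted p = 0.128). In FBS the labelled Rxra cKO was lower by -0.41 ± 0.10 (adjusted p = 0.00956), a call lost without Rxra cKO FBS replicate 1 (-0.35).

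Of the other complex IV genes, Cox6a1 was at 132 and 155 CPM in wild-type FBS and 103 and 97.0 in wild-type atRA+PKCi, and at 123 and 143 and then 111 and 118 in the labelled Rxra cKO. The groups of a genotype did not overlap, and it fell by 0.52 ± 0.10 in wild-type (adjusted p = 0.00236), with -0.22 ± 0.10 in the labelled Rxra cKO (adjusted p = 0.112). Cox6b1, a subunit of the face towards cytochrome c, was at 217 and 269 CPM in wild-type FBS and 175 and 178 in wild-type atRA+PKCi and fell by 0.46 ± 0.12 (adjusted p = 0.00923), with 199 and 234 and then 179.6 and 199 CPM in the labelled Rxra cKO. With library totals the wild-type value of Cox6b1 was -0.22 and no longer called. Cox7a2, the isoform found in most tissues, was at 126 and 155 CPM in wild-type FBS, at 94.0 and 109 in wild-type atRA+PKCi, 121 and 149 in labelled Rxra cKO FBS and 95.0 and 99.9 in labelled Rxra cKO atRA+PKCi. Cox7a2 fell by 0.47 ± 0.13 in each genotype (adjusted p = 0.0137 and 0.0174), but the wild-type call was lost without wild-type FBS replicate 2 (-0.32) or without wild-type atRA+PKCi replicate 1 (-0.39), and the other without Rxra cKO FBS replicate 2 (-0.32) or without Rxra cKO atRA+PKCi replicate 1 (-0.41) or 2 (-0.51).

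Cox4i1 and Cox8a, the isoforms of their subunits found in most tissues, did not pass the test in any contrast. Cox4i1 was at 278 and 350.3 CPM in wild-type FBS and 348 and 359 in wild-type atRA+PKCi, and at 266 and 288 and then 337 and 343 in the labelled Rxra cKO, with medium effects of 0.17 ± 0.11 (adjusted p = 0.206) and 0.29 ± 0.11 (adjusted p = 0.0505), the second called with the replicate block at 0.30. Cox8a lay between 136 and 179 CPM over the 8 libraries. Its media overlapped within each genotype, and its genotypes overlapped in FBS. In atRA+PKCi, both labelled Rxra cKO libraries were above both wild-type libraries in Cox8a, without a call.

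Complex V genes summed to 3551 and 3886 CPM in wild-type FBS and 3211 and 3272 in wild-type atRA+PKCi. As a percent of library counts, without TMM factors, they took 0.324% and 0.343% against 0.348% and 0.340%, with overlap. Atp5k, the e subunit of the membrane part (GRCm38 chr5:108433244-108434448, minus strand), was at 80.9 and 108 CPM in wild-type FBS and 56.7 and 55.5 in wild-type atRA+PKCi, and at 71.3 and 89.4 and then 61.9 and 64.4 in the labelled Rxra cKO. It fell by 0.75 ± 0.14 in wild-type (adjusted p = 0.00203), against -0.35 ± 0.14 in the labelled Rxra cKO (adjusted p = 0.0763). Atp5j, of the peripheral stalk, was at 197 and 222 CPM in wild-type FBS and 132 and 138 in wild-type atRA+PKCi, and at 214 and 246 and then 170.3 and 172 in the labelled Rxra cKO. Both FBS pairs were above both atRA+PKCi pairs, with -0.64 ± 0.09 (adjusted p = 0.000328) and -0.43 ± 0.09 (adjusted p = 0.0045), and the second call was lost without Rxra cKO atRA+PKCi replicate 1 (-0.40).

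Atp5f1, also of the stalk, was at 221 and 248 CPM in wild-type FBS, at 196 and 206 in wild-type atRA+PKCi, 264 and 285 in labelled Rxra cKO FBS and 234 and 236 in labelled Rxra cKO atRA+PKCi. Its effects were -0.22 ± 0.08 with medium in both genotypes (adjusted p = 0.0416 and 0.0481) and 0.23 ± 0.08 with genotype in both media (adjusted p = 0.043 and 0.0445). Each of these 4 calls was lost without any 1 of at least 4 libraries, at -0.14 to -0.26 in wild-type and -0.17 to -0.25 in labelled Rxra cKO for medium and at 0.15 to 0.26 for genotype, and the wild-type medium effect of Atp5f1 was 0.02 with library totals. The catalytic F1 genes were the most abundant of complex V per library: Atp5b lay between 778 and 953 CPM and was lower in wild-type atRA+PKCi by -0.25 ± 0.07 (adjusted p = 0.0118), and Atp5a1 lay between 623 and 712 CPM without a call.

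The c-ring, which turns as protons pass, is encoded by 3 genes with different leader peptides, Atp5g1, Atp5g2 and Atp5g3. Atp5g1 was at 57.3 and 64.6 CPM in wild-type FBS and 62.8 and 63.7 in wild-type atRA+PKCi, and at 80.7 and 87.5 and then 85.5 and 81.4 in the labelled Rxra cKO. All labelled Rxra cKO libraries were above all wild-type libraries, by 0.46 ± 0.08 in FBS (adjusted p = 0.00159) and 0.40 ± 0.08 in atRA+PKCi (adjusted p = 0.00318). Atp5g2 lay between 5.10 and 9.75 CPM and was called with genotype in FBS (0.52 ± 0.18, adjusted p = 0.049), a call lost without wild-type FBS replicate 1 (0.39) or any 1 of the 4 labelled Rxra cKO libraries (0.37 to 0.63). Atp5g3 was at 183 and 202 CPM in wild-type FBS and at 161 in both wild-type atRA+PKCi libraries, lower by -0.26 ± 0.07 (adjusted p = 0.0118), with no call without wild-type atRA+PKCi replicate 2 (-0.26) or under library totals (-0.02). Per kilobase of exon, Atp5g3 averaged 78.4 CPM per kb, Atp5g1 14.8 and Atp5g2 4.33 over the 8 libraries.

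Atp5e, the epsilon subunit of F1, was at 121 and 159.9 CPM in wild-type FBS and at 138 in both wild-type atRA+PKCi libraries, and at 83.2 and 99.2 and then 86.5 and 84.1 in the labelled Rxra cKO. The labelled Rxra cKO libraries were all below the wild-type libraries, by -0.62 ± 0.13 in FBS (adjusted p = 0.00473) and -0.69 ± 0.13 in atRA+PKCi (adjusted p = 0.00253). Atp5o, of the peripheral stalk, was at 169 and 189 CPM in wild-type FBS and 148 and 151 in wild-type atRA+PKCi, and at 217 and 235 and then 201 and 202 in the labelled Rxra cKO. It was higher in the labelled Rxra cKO by 0.34 ± 0.08 in FBS (adjusted p = 0.00705) and 0.43 ± 0.08 in atRA+PKCi (adjusted p = 0.00198). Atp5o shares 47.9% of its exonic bases with other annotated entries. These are another entry of the same name, and D430001F17Rik and Gm15976 on the other strand. The split of reads between them is uncertain. Atp5s, a factor named for complex V and under the 10 CPM minimum for naming, was picked after its values were seen, at 4.60 and 4.79 CPM in wild-type FBS and 8.63 and 8.62 in wild-type atRA+PKCi. It rose by 0.88 ± 0.12 (adjusted p = 0.000377), and in the labelled Rxra cKO from 6.44 and 6.93 to 10.8 and 9.65 CPM, by 0.62 ± 0.12 (adjusted p = 0.00336).

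**Figure D2:**
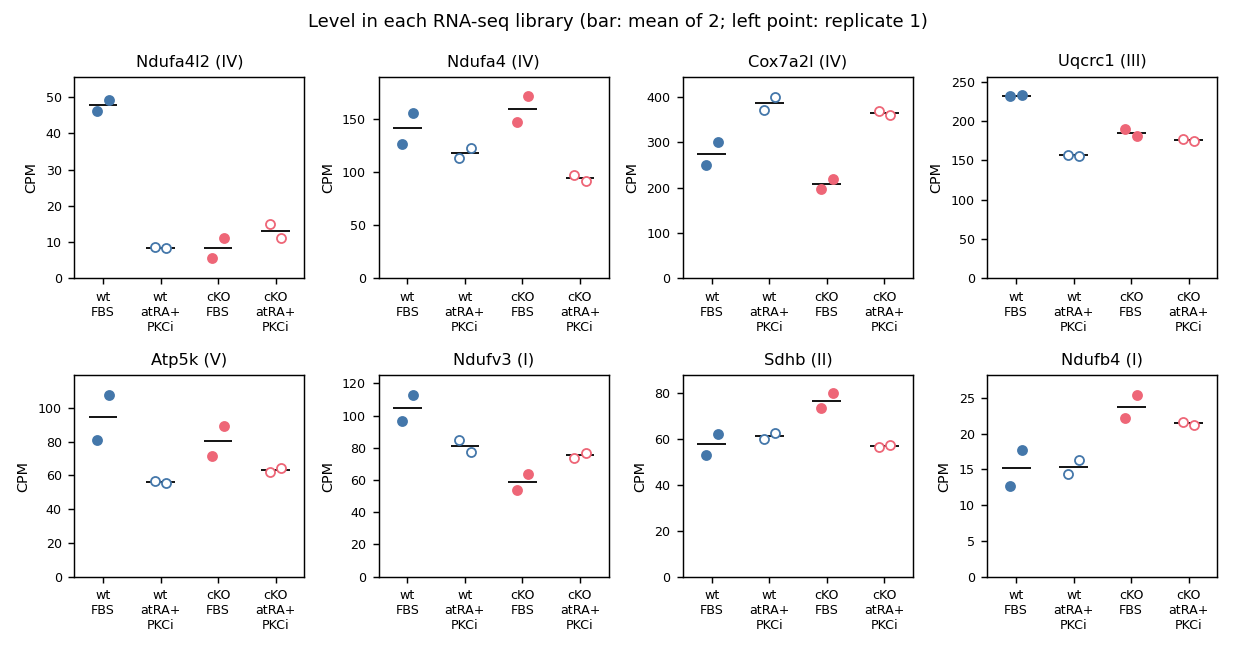
Level of 8 members in each RNA-seq library, in CPM on a linear axis from 0, for the 4 groups. Points are libraries, with replicate 1 on the left, and bars are the means of 2. Ndufa4l2 is at 46.3 and 49.3 CPM in wild-type FBS and at most 15.1 elsewhere, Cox7a2l is higher in every atRA+PKCi library, and Ndufb4 is higher in every labelled Rxra cKO library.

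The 13 subunits encoded in the mitochondrial genome, which partner the nuclear ones, summed to between 56801 and 74652 CPM. In wild-type, where 27.2% of all genes tested were higher and 26.6% lower, 2 were higher in atRA+PKCi and none lower, with a median of 0.15. These were mt-Nd5 of complex I (0.37, adjusted p = 0.0327) and mt-Cytb of complex III (0.35, adjusted p = 0.0436). In the labelled Rxra cKO no mitochondrial subunit passed the test in either direction, against 20.8% of all genes tested higher and 22.2% lower.

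In the wild-type medium contrast, 27.2% of all genes tested were higher and 26.6% lower. Of the assembly factors outside the naming rule, 15 of 40 tested in wild-type were higher in atRA+PKCi (37.5%) and 5 lower (12.5%). They included Lyrm7, which matures the Rieske protein (1.45, adjusted p = 3.18e-05), Sdhaf1 of complex II (0.91, adjusted p = 6.67e-05), the copper chaperone Cox17 (-0.70, adjusted p = 0.000427) and Uqcc2 of complex III (-0.84, adjusted p = 0.000821). Among 16 genes of electron carriers and enzymes that feed them, 4 were higher (25%) and 3 lower (18.8%). Coq8a, of coenzyme Q synthesis, was at 0.511 and 0.232 CPM in wild-type FBS and 28.6 and 28.1 in wild-type atRA+PKCi, and at 0.899 and 0.874 and then 9.64 and 11.03 in the labelled Rxra cKO. Coq8a thus had a medium effect of 6.23 ± 0.22 in wild-type and 3.53 in the labelled Rxra cKO, and Coq9 (0.58), Coq7 (-0.44) and Cycs, cytochrome c (-0.49), were also called in wild-type.

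Of the other lists in the wild-type medium contrast, glycolysis had 0 genes higher and 13 of 16 lower (median -0.42), among them the glucose transporter gene Slc2a1 (-0.92) and Hk1 (-1.54). In that contrast 27.2% of all genes tested were higher and 26.6% lower. Hypoxia targets had 1 higher, Kdm3a (0.41), and 6 of 11 lower, among them Bnip3 (-1.25) and Egln3 (-1.33). Tricarboxylic acid cycle enzymes had 2 higher, Suclg2 (0.31) and Idh3g (0.18), and 1 of 13 lower, Idh3a (-0.29). Regulators of mitochondrial biogenesis had 7 higher, with the helicase gene Twnk at 1.35, and 3 of 17 lower, with Nrf1 at -0.28 and Yy1 at -0.31. Ppargc1a, a coactivator of mitochondrial genes, was at 0 counts in each wild-type FBS library and at 2.60 and 3.39 CPM in wild-type atRA+PKCi. Genes of mitochondrial stress had 3 higher, with the chaperone genes Hspe1 (0.66) and Hspd1 (0.62), and 6 of 11 lower, with Chac1 (-1.15) and Fgf21 (-1.95).

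Ribosomal and cell type lists are given against a background of 27.2% of all genes higher and 26.6% lower in the wild-type medium contrast. Mitochondrial ribosomal proteins had 18 higher (23.1%) and 26 of 78 lower (33.3%), with Mrpl23 (0.85) and Mrpl13 (0.53) against Mrpl28 (-0.70) and Mrpl46 (-0.79). Cytosolic ribosomal proteins had 11 of 80 higher (13.8%) and 0 lower, with Rps4l (1.163) and Rps27l (0.69). All 6 keratinocyte markers were lower, with Itga6 (-1.05) and Krt14 (-1.87), and 4 of 8 cycling markers were lower, with Cdk1 (-0.58) and Rrm2 (-0.89). Of 6 fibroblast or feeder markers tested, Vim was higher (1.73) and Pdgfra lower (-2.91), Dcn was called lower at 0.620 and 0.386 CPM against 0.0320 and 0, the 1 melanocyte marker tested did not pass, and the 1 immune marker tested, Cd74, was called higher at 0 counts in each wild-type FBS library against 0.192 and 0.222 CPM in wild-type atRA+PKCi. In the labelled Rxra cKO, where 22.2% of all genes tested were lower with the change of medium, 7 of 8 cycling markers were lower. Their sum fell from 1026 and 954 to 477 and 494 CPM. The part of these lists in the members' changes was not tested.

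In anagen VI back skin, skeletal muscle-like cells gave the members the largest share of their transcripts. Cells were clustered without the members or mitochondrial genes, so that levels of the members did not shape the classes, and 15 classes named from markers and 9 unnamed clusters were compared by the share of their summed UMIs (molecules counted once each) that fell on members. No test was made between classes, since all classes of a mouse share one library and there were 2 mice. The share was 4.10% and 4.01% in skeletal muscle-like cells of mouse 1 and mouse 2 (88 and 140 cells), 2.69% and 2.54% in hair matrix-like cells, 2.47% and 2.31% in melanocyte-like cells and 2.09% and 1.76% in outer root sheath-like cells. It was 1.36% and 1.06% in fibroblast-like, 1.26% and 1.14% in endothelial-like and 1.121% and 0.609% in erythroid-like cells. The erythroid-like mean of both mice, 0.865%, was 1.398% among cells with at least 1000 genes and under 5% mitochondrial UMIs, above the endothelial-like (1.24%), fibroblast-like (1.26%) and dermal papilla-like (1.32%) means under that filter. In the order of means, neighbors overlapped except below skeletal muscle-like, hair matrix-like and endothelial-like cells, and mouse 1 was above mouse 2 in all 24. The median UMI count of skeletal muscle-like cells was 1999 and 1842, against 8869 and 10594 for all cells kept, although Acta1, Mylpf and Ckm led that cluster. The sort had excluded cells with CD45, CD31, CD140a or CD117, and immune-like, endothelial-like, fibroblast-like and melanocyte-like cells were present in the matrices all the same.

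**Figure D3:**
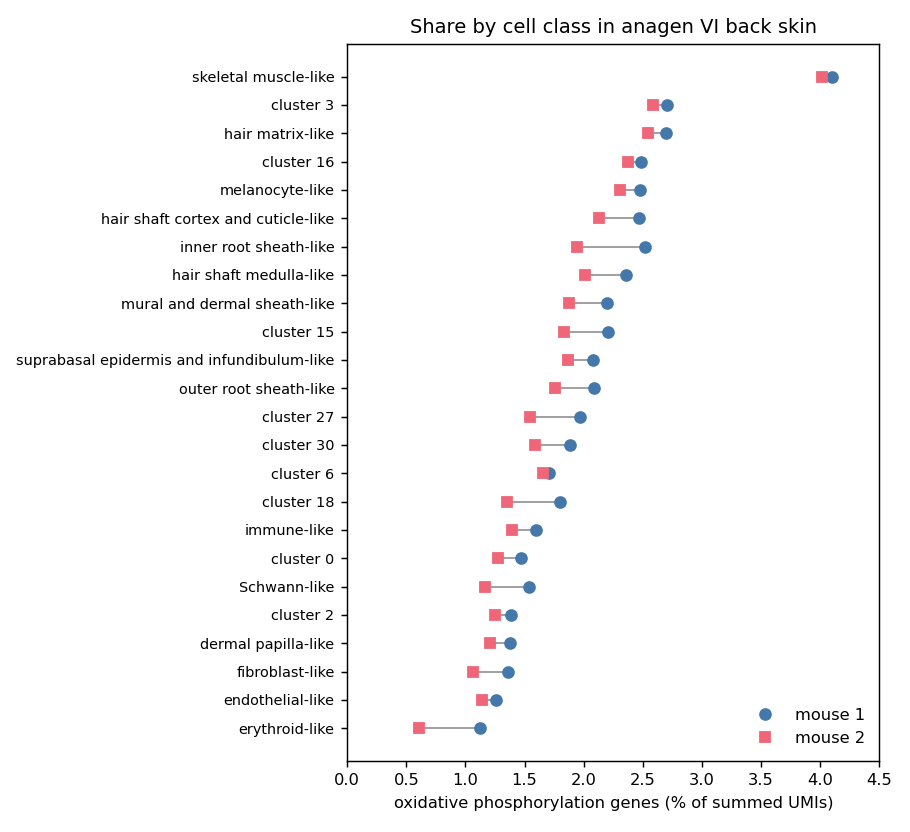
Share of summed UMIs on oxidative phosphorylation genes in each cell class or unnamed cluster of anagen VI back skin, in percent on a linear axis from 0, ordered by the mean. Circles are mouse 1 and squares mouse 2, joined by a line. Skeletal muscle-like cells lie near 4% in both mice and all others at most 2.71%, and mouse 1 lies to the right of mouse 2 in every row.

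How many members differed varied with the class. Against outer root sheath-like cells of both mice, 81 of 90 members compared were higher in both mice of skeletal muscle-like cells without overlap and 4 lower, where 25.5% of all genes were higher and 41.5% lower, and the median log2 ratio was 0.86 in mouse 1 and 1.03 in mouse 2. In hair matrix-like cells, 67 of 86 were higher and 2 lower, where 42.0% of all genes were higher and 36.4% lower, with medians of 0.36 and 0.54. In melanocyte-like cells, 56 of 87 were higher and 5 lower, against 35.5% and 29.4%. In fibroblast-like cells, 2 of 87 were higher and 76 lower, against 29.3% and 52.0%, with medians of -0.56 and -0.70. Of the fibroblast-like clusters, 2 came mostly from mouse 1 (1983 against 75 cells and 1040 against 35) and 1 mostly from mouse 2 (2190 against 223). In hair shaft cortex and cuticle-like cells 47 of 86 were higher and 8 lower (37.7% and 34.3% of all genes), in hair shaft medulla-like cells 41 and 9 of 86 (39.4% and 29.7%) and in inner root sheath-like cells 34 and 7 of 86 (40.5% and 28.2%). Mural and dermal sheath-like cells had 31 higher and 12 lower of 88 (38.3% and 24.7%). Immune-like cells had 5 higher and 60 lower of 87 (37.7% and 34.8%), Schwann-like 3 and 53 of 86 (34.6% and 23.5%), endothelial-like 2 and 73 of 88 (34.8% and 31.2%) and erythroid-like 1 and 83 of 86 (6.43% and 79.6%). Dermal papilla-like cells had 7 of 88 higher and 65 lower, against 44.9% and 30.8%. Suprabasal epidermis and infundibulum-like cells had 17 of 87 higher and 15 lower, against 28.8% and 31.8%.

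The shares of complexes I, III, IV and V were each higher in skeletal muscle-like than in outer root sheath-like cells, whereas the mitochondrially encoded share was lower than in outer root sheath-like cells. In skeletal muscle-like cells complex I took 1.20% and 1.15% of UMIs, complex III 0.396% and 0.411%, complex IV 1.05% and 1.079% and complex V 1.36% and 1.28%. In outer root sheath-like cells the same complexes took 0.604% and 0.515%, 0.198% and 0.174%, 0.562% and 0.483%, and 0.668% and 0.537%. Each muscle value was above both outer root sheath values. The share of the mitochondrially encoded subunits was 3.45% and 2.73% in skeletal muscle-like cells, 4.22% and 4.33% in outer root sheath-like cells and 6.11% and 5.64% in melanocyte-like cells, but cells were kept only under 10% mitochondrial UMIs, which bounds it.

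In hair matrix-like cells, which feed the growing hair, complex I took 0.759% and 0.717%, complex IV 0.681% and 0.651% and complex V 0.927% and 0.845%. Cytosolic ribosomal proteins took 20.6% and 19.4% of UMIs there and 17.1% and 13.5% in outer root sheath-like cells, and cycling markers 0.210% and 0.206% against 0.0478% and 0.0552%. The part of growth and cell division in the higher share was not tested. Unnamed cluster 3, led by Tmtc1, Mycl, Stmn1, Ccnd2 and Lgr6, had 2.71% and 2.59%, overlapping hair matrix-like cells.

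Isoforms of complex IV differed between the classes. Cox8b is the heart and muscle isoform of the smallest subunit and Cox8a the common one. Their promoters are shown side by side since their levels went in opposite directions between muscle-like and follicle cells. The window of Cox8a is chr19:7217617-7217866 and that of Cox8b chr7:140900447-140900696 of GRCm38.p6, both on the minus strand. Each holds the 250 bases before the RefSeq start. A CCAAT box (read on the other strand, as ATTGG) is in capitals in Cox8a. In Cox8b the E-box CAGCTG is in capitals, a letter sequence bound by muscle regulatory factors among others. The Cox8b window also holds an unmarked match to the HIF core ACGTG, read on the other strand as CACGT. Whether these matches are used was not tested.
Cox8a: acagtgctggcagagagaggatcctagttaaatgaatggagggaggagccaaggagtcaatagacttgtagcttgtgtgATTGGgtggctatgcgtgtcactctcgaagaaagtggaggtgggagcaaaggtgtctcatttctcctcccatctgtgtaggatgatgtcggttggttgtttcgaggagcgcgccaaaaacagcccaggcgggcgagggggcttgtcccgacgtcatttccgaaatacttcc
Cox8b: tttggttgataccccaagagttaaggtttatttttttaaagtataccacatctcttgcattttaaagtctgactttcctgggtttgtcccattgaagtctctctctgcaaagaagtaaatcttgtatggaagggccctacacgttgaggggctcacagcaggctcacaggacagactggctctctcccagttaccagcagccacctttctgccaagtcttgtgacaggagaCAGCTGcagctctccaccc
Cox8b was at 563 and 786 CPM in skeletal muscle-like cells, from 225 and 495 UMIs, and at most 7.17 in any other class of either mouse. Cox8a was at 323 and 324 CPM in skeletal muscle-like cells, against 605 and 528 in outer root sheath-like and 930 and 849 in melanocyte-like cells. Skeletal muscle-like cells thus stood above all other classes in Cox8b and below outer root sheath-like and melanocyte-like cells in Cox8a, which was lowest in erythroid-like cells.

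Cox6a2, the muscle isoform of subunit VIa, was at 850.1 and 1231 CPM in skeletal muscle-like cells, at 22.8 and 13.7 in immune-like cells, and at 5.01 and 19.7 in unnamed cluster 18, which Igkc and Cd79a led. No other class exceeded 7.21 CPM. Cox6a1, its common counterpart, was at 163 and 124 CPM in skeletal muscle-like cells, against 228 and 227 in outer root sheath-like and 332 and 321 in inner root sheath-like cells. Cox7a1, the muscle isoform of subunit VIIa, was at 280.0 and 289 CPM in skeletal muscle-like cells and at most 5.97 elsewhere. Its counterpart Cox7a2 did not go the other way: Cox7a2 was at 445 and 398 CPM in skeletal muscle-like cells and 292 and 261 in outer root sheath-like cells.

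Cox4i2, an isoform of subunit IV known from lung and oxygen sensing, was highest in cells of vessel walls and the papilla. It was at 58.9 and 60.9 CPM in mural and dermal sheath-like cells, and within them at 185 and 136 in the cluster led by Rgs5 and Myh11. It was at 31.0 and 43.5 CPM in dermal papilla-like cells and 0.154 and 0.105 in outer root sheath-like cells. Cox4i1 was at 1448 and 1219 CPM in skeletal muscle-like cells and 1172 and 962 in outer root sheath-like cells, and its muscle values lay above both outer root sheath values.

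Ndufa4l2, the gene with the largest change in culture, was low in the outer root sheath in vivo. It was at 2.00 and 1.47 CPM in outer root sheath-like cells and 1.57 and 1.164 in hair matrix-like cells. It was at 220.2 and 209.8 CPM in suprabasal epidermis and infundibulum-like cells and at 191 and 178 in mural and dermal sheath-like cells. Of the mural and dermal sheath-like clusters, the one led by Rgs5 was at 598 and 394 CPM and the one led by Il17b at 5.58 and 10.9. Of the fibroblast-like clusters, the one led by Cdh4, Hpgd and Ndufa4l2 itself was at 175 and 151 CPM. Ndufa4 was at 848 and 704 CPM in melanocyte-like, 713 and 773 in skeletal muscle-like and 359.8 and 345 in outer root sheath-like cells.

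The c-ring genes differed in where they were highest. Atp5g1 was at 1480.2 and 1193 CPM in skeletal muscle-like cells and 452 and 326 in outer root sheath-like cells. Atp5g2 was at 735 and 667 CPM in skeletal muscle-like, 794 and 670.1 in hair matrix-like and 455 and 364 in outer root sheath-like cells. Atp5g3 was at 440.1 and 386 CPM in skeletal muscle-like and 278 and 223 in outer root sheath-like cells. All 3 were thus higher in skeletal muscle-like than in outer root sheath-like cells, and Atp5g2 overlapped between skeletal muscle-like and hair matrix-like cells.

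Some isoforms were rare. Cox6b2, known from testis, was at 20.4 and 36.1 CPM in melanocyte-like and 28.2 and 25.8 in dermal papilla-like cells, with overlap among many classes, and Cox6b1 was at 595 and 589 CPM in skeletal muscle-like cells and at 434 and 406 in melanocyte-like cells. Cox7b2 had 20 UMIs in all. Cox8c had 0 UMIs, which allows up to 0.0237 CPM over the cells of mouse 1 and 0.0196 over those of mouse 2. Over the 93 members, Cox8c among them, the highest class was skeletal muscle-like for 70, unnamed cluster 3 for 7 and hair matrix-like for 4. The same count was not made over all genes, so it does not set the members apart from other genes. Such highest values were not compared with their neighbors.

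**Figure D4:**
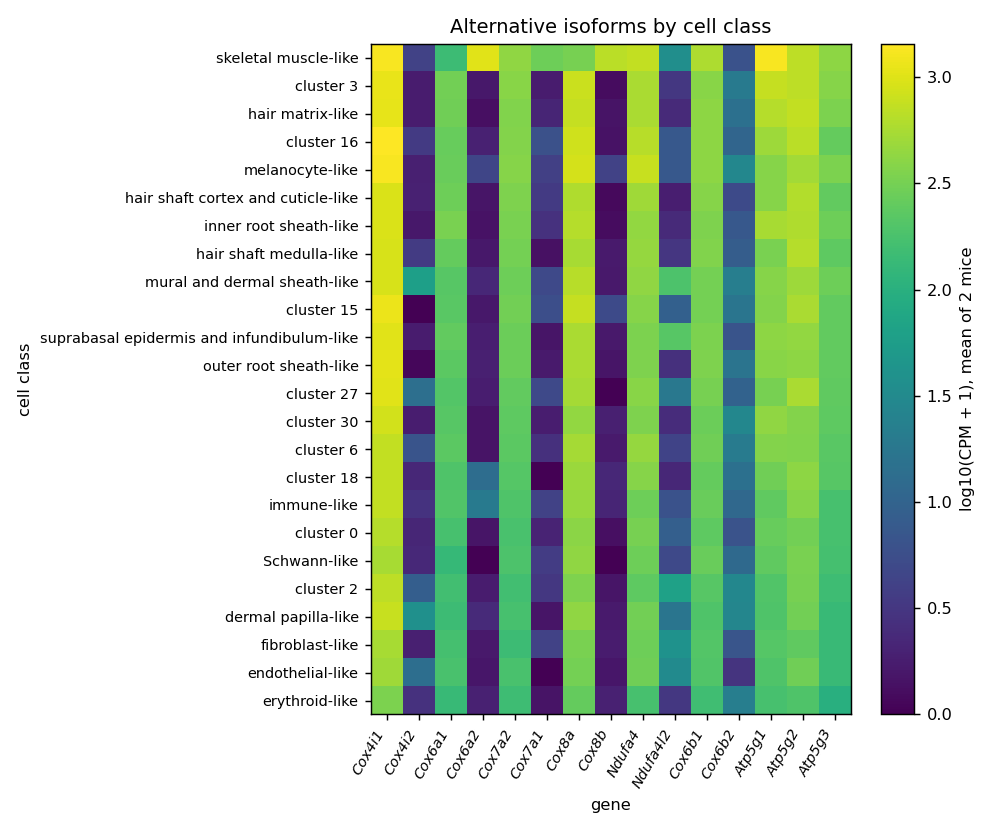
Level of 15 members with alternative isoforms in each cell class or unnamed cluster of anagen VI back skin, as log10 of CPM plus 1, averaged over 2 mice. Rows are ordered by the share of all members, and lighter colors are higher. Cox6a2, Cox8b and Cox7a1 are light in the skeletal muscle-like row and dark in most others, Cox4i2 is lightest in the mural and dermal sheath-like row, and Ndufa4l2 in the suprabasal and mural rows.

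Over all members, 77 had a promoter in the RefSeq table of 27025 windows (GRCm38.p6). The NRF1 motif was found on either strand in 13 of the 77, or 16.9%, against 3.86% of all windows. The ETS motif CCGGAAG was also found in 13, against 7.05% of all. The GC box GGGCGG was found in 41.6% against 32.9%, the CCAAT box in 45.5% against 34.5%, the HIF core ACGTG in 20.8% against 16.6%, the YY1 motif ATGGCGGC in 1.3% against 1.04% and the E-box CAGCTG in 7.79% against 12.8%. Motifs could overlap one another, and a match describes letters and not a site in use.

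In hashtagged HFSC cultures, few cells could be compared. Cultures with Rspo, BMP or RARi also held atRA+PKCi, which B27 cultures lacked. After filtering, mouse 1 and mouse 2 gave 5 and 10 cells in B27, 2 and 1 in atRA+PKCi, 5 and 6 in Rspo, 113 and 13 in BMP, 92 and 27 in Rspo+BMP, 5 and 21 in Rspo+BMP+RARi and 0 in FBS. The members took 1.14% and 1.41% of UMIs in B27, 2.03% and 1.59% in atRA+PKCi, 2.26% and 2.59% in Rspo, 2.12% and 1.78% in BMP, 2.05% and 1.84% in Rspo+BMP and 0.751% and 2.07% in Rspo+BMP+RARi. B27 was below BMP in both mice without overlap, with means of 1.28% and 1.95%. Among cells with at least 1000 genes and under 5% mitochondrial UMIs these means were 0.720% and 2.18%. B27 was also below atRA+PKCi and Rspo in both mice, from few cells each. The mice were farthest apart in Rspo+BMP+RARi, where mouse 1 had 5 cells. Cytosolic ribosomal proteins took 11.9% and 16.9% of UMIs in B27, 24.9% and 21.4% in BMP, 24.6% and 19.6% in Rspo+BMP and 7.32% and 22.1% in Rspo+BMP+RARi, and their part in the members' share was not tested.

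**Figure D5:**
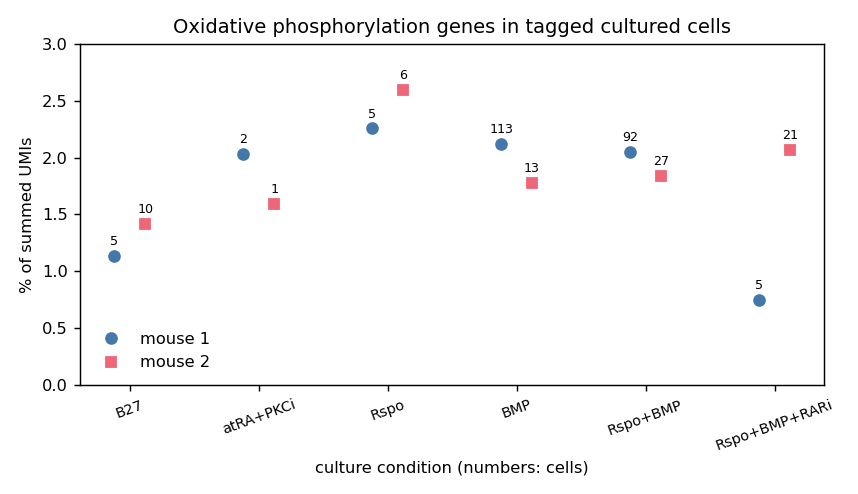
Share of summed UMIs on oxidative phosphorylation genes in hashtagged HFSC cultures, in percent on a linear axis from 0, by culture condition and mouse. Circles are mouse 1 and squares mouse 2, and numbers are the cells summed. Values lie between 0.751% and 2.59%, and the Rspo+BMP+RARi points of the mice are the farthest apart.

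Tests on summed UMIs per mouse called none of the 81 members tested. The contrast of BMP against B27 also covers the addition of atRA+PKCi, so the effects of BMP and of atRA+PKCi cannot be told apart. At an adjusted p under 0.01 and more than 1 log2 unit of change, 0.431% of 6265 genes were higher and 5.28% lower in BMP than in B27 (1.53% and 8.84% at an adjusted p under 0.05), and 0.00% either way for Rspo+BMP against BMP and for Rspo+BMP+RARi against Rspo+BMP. DESeq2 also called 0 members in each. At an unadjusted p under 0.05, edgeR gave 3 members higher in BMP than B27 and 1 lower, against 24.1% of all genes in either direction, and 0 in the other contrasts. These, named after their values were seen, were Ndufa13 (1.27), Ndufaf3 (1.78), Ndufaf8 (1.43) and Ndufa4l2 (-1.49 ± 0.56, adjusted p = 0.0983). Ndufa4l2 was at 42.3 and 191 CPM in B27, 58.4 and 103 in Rspo, 33.0 and 50.9 in BMP, 44.5 and 43.6 in Rspo+BMP and 83.2 and 89.6 in Rspo+BMP+RARi. The B27 and BMP values of Ndufa4l2 overlapped between mice. Levels scaled by library totals without TMM factors gave a median log2 difference of the members of 0.61 for BMP against B27. It was 0.86 in mouse 1 and 0.37 in mouse 2. For Rspo+BMP against BMP it was 0.01, and for Rspo+BMP+RARi against Rspo+BMP it was -0.68, from -1.50 in mouse 1 and 0.14 in mouse 2. In the edgeR fit the members' medians were 0.72, -0.04 and -0.48 in the same order. Those of all genes tested were 0.009, -0.004 and -0.03.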

How the data were processed

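HFSC cultures were measured by RNA-seq (8 libraries, 2 mice per genotype, each in both media), and back skin and hashtagged HFSC cultures by single cell RNA-seq (2 mice each). The authors made estimated counts with Salmon 1.4.0 on mm10, summed per gene, and deposited them with a second table of normalized signal values. Single cell files hold counts of UMIs that the authors made with Cell Ranger (7.0.1 in the submitters' processing notes). Chromatin samples were not analysed here. Members and gene lists were chosen with earlier results of these data known.

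Estimated counts were rounded and tested on all 15965 genes past edgeR's filter with edgeR 4.0.16 (R 4.3.3) as quasi-likelihood tests with TMM factors, 1 model over the 4 groups, and Benjamini-Hochberg adjustment at 0.05. The standard error of a log2 fold change was its size divided by the square root of F. The p-values rest on the spread between libraries of a group, shared over the 4 groups. The main fit had no block for the mouse, so cultures of one mouse counted as independent. The contrasts share libraries. Same-numbered cultures of a genotype came from the same mouse by the labels. Their deviations correlated at 0.112 (wild-type) and -0.00219 (labelled Rxra cKO) over 15965 genes. Over the members tested these values were 0.374 and -0.0927. Between same-numbered libraries of wild-type and labelled Rxra cKO, from different mice, the members gave 0.438 in FBS and 0.179 in atRA+PKCi. Alternatives used DESeq2 1.42.0, limma 3.58.1 on the deposited normalized signal (pseudocounts 1 and 0.5), the mouse as a block, other filters and scalings, and each library left out. Pseudogene symbols left out were Atp5k-ps2, Atp5l-ps1, Atp5l-ps2, Atp5l2-ps, Ndufab1-ps, Uqcrh-ps1 and Uqcrh-ps2, and the split of reads between copies was not tested. Of 93 annotated members (GENCODE on GRCm38), 32 share exonic bases with another annotated entry, 4 of them over 20%.

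Cells were kept with at least 500 genes, 1000 UMIs and under 10% mitochondrial UMIs, leaving 14458 of 16521 and 13915 of 16068 barcodes in vivo and 262 of 449 and 94 of 208 in culture. Scrublet doublets (833 and 307 cells in vivo) were removed. The in vivo libraries shared 62 barcodes and the cultured ones 0. Scanpy 1.11.5 clustered the cells (1995 variable genes without members and mitochondrial genes, 30 components, 20 neighbors, Leiden resolution 0.8), and clusters were named from marker genes or left unnamed. HTODemux of Seurat 5.3.0 assigned the hashtags (quantile 0.99). Cultured conditions with at least 5 cells in each mouse were summed per mouse and tested with edgeR. In vivo CPM is UMIs of a gene scaled by the total UMIs of a class. No correction for free RNA was made. Scripts were tested on simulated data. The result for 1 called member is not reported here, although counts include it.

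Named genes were all complex II genes, in each medium contrast the called genes with the highest and the lowest fold change per complex (mean of at least 10 CPM), the 3 highest and 3 lowest called in the other contrasts, isoforms whatever their values, 2 highest and 2 lowest called of each list in the wild-type medium contrast, and in vivo the 5 genes of at least 50 CPM most above their median class. Depth, 25150265 to 35879777 counts per library, limits the precision of genes at few CPM, and limits at 0 (3 counts) cover counting error only.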

Additional observations from a re-analysis of the deposited data

Results flagged for a closer look

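The medium effect of the members named here differed between genotypes by the test of that difference (edgeR quasi-likelihood, adjusted over all genes; wild-type minus labelled Rxra cKO, 2 libraries per group). The differences in log2 fold change were -3.13 for Ndufa4l2, -0.73 for Ndufv3, -0.49 for Uqcrc1, -0.42 for Ndufs5, -0.34 for Atp5d and 0.52 for Sdhb. Ndufs5 was at 46.1 and 53.3 CPM in wild-type FBS, at 36.3 and 39.2 in wild-type atRA+PKCi, 42.7 and 46.7 in labelled Rxra cKO FBS and 46.0 and 44.6 in labelled Rxra cKO atRA+PKCi. Atp5d was at 206 and 209.6, 159.7 and 159, 171 and 180.2, and 165 and 175 CPM in the same order. The cause of the differences was not tested.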

How the results depend on the processing

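Of 160 named bulk values, 145 kept their direction and side of the threshold with DESeq2, 154 with RLE factors and 126 with library totals, a scaling chosen after seeing the data. With library totals the wild-type medium effects of Atp5f1 (0.022) and Uqcrc2 (0.23) turned positive. The cause was not tested. In the order wild-type medium, labelled Rxra cKO medium, genotype in FBS, genotype in atRA+PKCi and interaction, leaving out 1 library gave 2 to 10, 4 to 9, 3 to 16, 4 to 15 and 0 to 4 higher, and 15 to 36, 3 to 16, 9 to 27, 1 to 7 and 3 to 13 lower. For wild-type medium, higher members numbered 2 with DESeq2, with only the 4 libraries compared and with limma at either pseudocount, and 23 with library totals, which gave 7 lower. For labelled Rxra cKO medium there were 16 lower without the filter on low counts, 17 with only the 4 libraries compared and 6 with library totals, which gave 17 higher. Library totals gave 23 higher and 8 lower for genotype in FBS. For genotype in atRA+PKCi, only the 4 libraries compared gave 21 higher and 10 lower, and limma gave 3 lower at either pseudocount. For the interaction, higher members numbered 2 with DESeq2, without the filter, with library totals and with the mouse as a replicate block, and lower ones 10 without the filter and 3 with library totals. The block moved no other count by over 1.5 times, and it added calls for Ndufa6 (wild-type medium, 0.31), Cox4i1 and Ndufa4. At an adjusted p under 0.01 and more than 1 log2 unit of change, there was 1 lower member each for wild-type medium, genotype in FBS and the interaction, and 0 otherwise.

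Mean shares of 2 mice moved by more than their SD as follows. Hair matrix-like cells were at 2.40% with Leiden resolution 1.5, 2.47% with doublets kept and 2.74% without mitochondrial UMIs in the total. Mural and dermal sheath-like cells were at 1.80% with resolution 1.5. Without the mitochondrial limit, cortex and cuticle-like cells were at 1.77%, melanocyte-like at 2.22%, skeletal muscle-like at 3.91%, Rspo cultures at 1.82% and Rspo+BMP at 1.70%. Without mitochondrial UMIs in the total, melanocyte-like cells were at 2.54% and skeletal muscle-like at 4.18%. As a mean per cell, these were at 2.15% and 4.57%, endothelial-like at 1.09% and B27 cultures at 0.891%. With the strict filter (1000 genes, 5% mitochondrial UMIs), cortex and cuticle-like cells were at 2.56%, inner root sheath-like at 2.83%, erythroid-like at 1.398%, B27 at 0.720% and Rspo+BMP at 1.62%. It gave no value for melanocyte-like and skeletal muscle-like cells or for Rspo, Rspo+BMP+RARi and atRA+PKCi cultures. Cultured medians without 1 mouse, from levels scaled by library totals, ran from 0.37 to 0.86 (BMP against B27), -0.046 to 0.067 (Rspo+BMP against BMP) and -1.50 to 0.14 (RARi). With 2 mice a group and few cultured cells, small differences were not detectable.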
